A study of Mus musculus with 6 samples.

Results

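Galectins are animal lectins that bind beta-galactoside sugars through a conserved carbohydrate-recognition domain. They are made in the cytosol, leave the cell without a classical signal peptide, and cross-link glycoproteins at the cell surface and in the matrix. Prototype galectins (Lgals1, Lgals2, Lgals7) have a single domain and can form dimers. The chimera galectin Lgals3 joins its domain to a flexible proline- and glycine-rich tail, and tandem-repeat galectins (Lgals4, Lgals8, Lgals9, Lgals12) carry a pair of domains on 1 chain. Lgals3bp is not a galectin but a secreted glycoprotein that galectin-3 binds. In the human prostate, galectin-1 is known mainly from stroma and galectin-3 mainly from epithelium.

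The 9 genes Lgals1, Lgals2, Lgals3, Lgals4, Lgals7, Lgals8, Lgals9, Lgals12 and Lgals3bp were taken by name, with every probe set that matched them, which gave 12 of the 32025 probe sets on the array. The family was chosen by its log2 differences between the genotypes, that of Lgals4 first, so the member differences below are a description and carry no p-value. The samples were prostates of 3 Gli1-/- and 3 wild-type mice aged 10 weeks. Gli1 encodes a transcription factor of the Hedgehog pathway. Mice of both genotypes had been castrated at 8 weeks and had received a testosterone pellet 2 weeks later. The ventral and dorsolateral lobes of single mice were taken after 3 days of testosterone, during regrowth of the gland. The sources used here give neither the strain nor the construction of the Gli1 allele. Values are log2 intensities, so a difference of 1 is a doubling, and errors of differences are SEs of a limma fit over all probe sets.

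Whole lobes were profiled, so fewer cells of a type and less RNA per cell cannot be told apart. The labelled tissue was checked against the androgen-dependent secretory gene Pbsn, at 12.28 ± 0.33 in Gli1-/- and 13.16 ± 0.31 in wild-type mice, and against the prostate homeobox gene Hoxb13, at 11.46 ± 0.02 and 11.44 ± 0.08 (SD, n = 3 each). Gli1 itself read 6.34, 6.27 and 6.29 in Gli1-/- mice 1 to 3, against 6.28, 6.48 and 6.51 in wild-type mice 1 to 3. These Gli1 groups overlapped, and whether its probes lie in the altered part of the gene is not known here. This transcript therefore gives the genotype labels no check. Of 2 mice that stood apart, Gli1-/- mouse 2 and wild-type mouse 3 had seminal vesicle scores of 1.08 and 1.59, against -0.30 or lower in the other 4. A score is the mean of a list's log2 values after each gene is centred on its mean over the 6 mice. The labels state no pairing by replicate number, so the numbers are used here as names only.

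Of the 9 genes, 7 read higher on average in Gli1-/- prostates and 2, Lgals7 and Lgals2, read lower. Over all genes 48.5% read higher, the share to set beside each count of higher genes in a marker list below. Lgals4 had the largest difference, followed by Lgals3, Lgals3bp and Lgals9. The median difference over the 12 member probe sets was 0.70, against -0.01 over all probe sets. The groups did not overlap for 8 member probe sets of 5 genes that were higher (7.86% of all probe sets) and for 1, that of Lgals7, that was lower (6.19% of all). Of the 12, 0 passed limma's Benjamini-Hochberg adjusted threshold of 0.05 over all probe sets in either direction. That threshold was passed by 0.00312% of all probe sets upward and 0.00625% downward. At an unadjusted p under 0.05 there were 9 member probe sets higher (5.31% of all) and 1 lower (4.48% of all). The 9 became 5 without Gli1-/- mouse 3, 5 without Gli1-/- mouse 2 and wild-type mouse 3 together, 6 without wild-type mouse 3 and 6 with 1 probe set a gene. Since the same contrast chose the family, these counts are given as a record only. The pairs of probe sets for Lgals3, Lgals8 and Lgals9 read alike, within 0.14 of each other in every array, and such pairs may share probes, so they are not separate measurements. The brighter of each pair is used below.

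**Figure D1:**
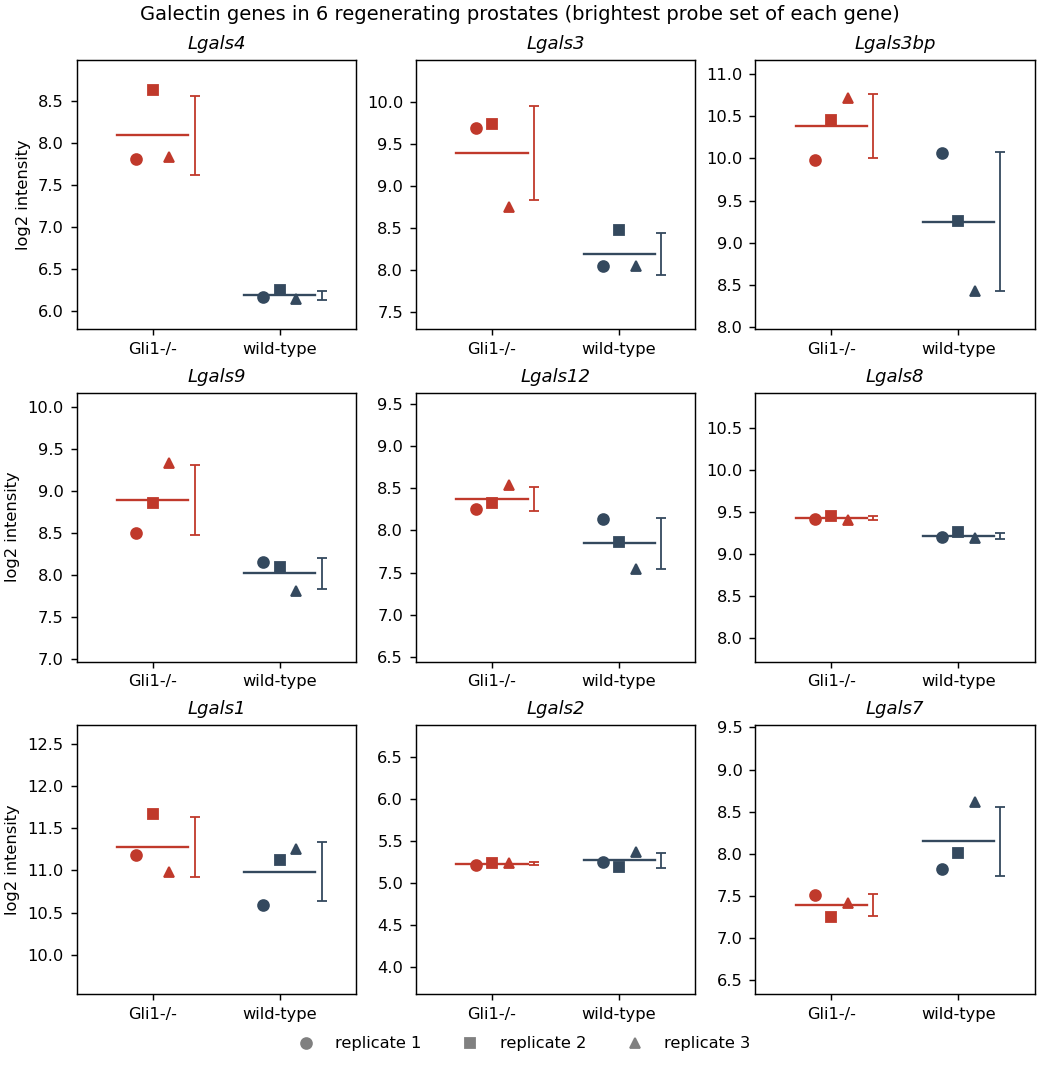
Log2 intensity of each galectin gene in 3 Gli1-/- mice (red) and 3 wild-type mice (blue), with marker shapes for the replicate number, a horizontal line at the group mean and a bar of ± 1 SD. Every panel spans the same log2 range; Lgals4 has the widest gap between the groups, 1.56, and Lgals1, Lgals2 and Lgals3bp overlap.

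Lgals4, best known from the lining of the gut, where it takes part in carrying glycoproteins to the apical surface, separated the genotypes most widely. It read 7.81, 8.63 and 7.83 in Gli1-/- mice 1 to 3, against 6.17, 6.25 and 6.14 in wild-type mice 1 to 3. All 3 Gli1-/- mice lay above all 3 wild-type mice, with mouse 2 highest, and wild-type mice lay close together. The difference was 1.90 (SE 0.22), or 3.74-fold between the deposited values. The wild-type level lay below the median of all probe sets, 6.76 to 6.95 by array, a range where array differences are compressed, so the size of this fold is uncertain. Without Gli1-/- mouse 2 and wild-type mouse 3 it was 1.61. Some mouse strains carry Lgals6, a near-identical copy of Lgals4. Lgals6 is absent from the gene table used here, and whether it contributes to the Lgals4 signal was not tested. Of 7 intestinal epithelium markers 5 were higher, with a median difference of 0.03. Of the 7, 5 read below the 30th percentile of all probe sets, where little difference can be seen. Cdh17, an intestinal cadherin gene picked after its values were seen, differed by 0.56 (SE 0.16). It was the 1 marker of the 7 whose groups did not overlap, where 7.86% of all probe sets were higher without overlap. The summed level of a list is the log2 of its summed linear intensities. For the intestinal markers it lay between 8.63 and 8.65 in Gli1-/- and between 8.48 and 8.78 in wild-type mice. Urothelial markers had summed levels of 12.30 to 13.11 in Gli1-/- and 12.78 to 12.85 in wild-type mice, 5 of 9 being higher. The brightest of the 9, Upk1a and Upk1b, weigh most in this sum, and Upk1a was lowest, at 11.25, in Gli1-/- mouse 2. The groups did not overlap for 2 of the 9, both higher. These were Sprr1a by 1.02 (SE 0.33) and Krt13 by 0.30 (SE 0.13), named after their values were seen.

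The sequence around an annotated start of Lgals4 is shown because this gene carries the largest difference, and that of Lgals9 because it holds the sole motif matches found among the members. Each window runs from 250 bases before to 50 bases after the start of transcription, 5′ to 3′ on the gene's strand, from RefSeq on GRCm38.p6. The Lgals4 window lies at a start inside the gene record, which begins farther upstream. Capitals mark motif matches.
Lgals4, chr7:28833544-28833843, plus strand: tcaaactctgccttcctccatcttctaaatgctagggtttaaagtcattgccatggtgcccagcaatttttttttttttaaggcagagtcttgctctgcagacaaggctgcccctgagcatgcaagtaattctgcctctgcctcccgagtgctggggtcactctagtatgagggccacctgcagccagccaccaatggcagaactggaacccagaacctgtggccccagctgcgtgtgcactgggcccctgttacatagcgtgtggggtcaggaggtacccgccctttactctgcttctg
Lgals9, chr11:78984875-78985174, minus strand: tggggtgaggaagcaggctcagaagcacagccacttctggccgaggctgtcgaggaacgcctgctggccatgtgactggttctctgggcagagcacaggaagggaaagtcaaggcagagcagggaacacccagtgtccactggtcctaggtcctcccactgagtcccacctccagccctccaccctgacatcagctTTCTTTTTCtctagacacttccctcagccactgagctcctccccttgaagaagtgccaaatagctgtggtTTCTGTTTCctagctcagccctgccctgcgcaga
Windows were given for 7 of the 9 genes: Lgals2, Lgals3, Lgals3bp, Lgals4, Lgals7, Lgals8 and Lgals9. Motifs searched on both strands were the GLI site GACCACCCA, held by 0.253% of all 32851 windows, and the core of the interferon regulatory factor site, GAAANNGAA, held by 8.56%. The STAT site TTCNNNGAA was held by 8.3% of all windows and the AP-1 site TGANTCA by 7.81%. The interferon regulatory factor site matched the Lgals9 window in 2 places, both on the opposite strand, starting 54 bases before the start and at base 17 after it. None of the other motifs matched in these 7 windows, and a match or its lack is a description of these letters.

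Lgals4 and Lgals7 are next to each other among the protein-coding genes of chromosome 7, with 0 others between them, and their differences had opposite signs. Lgals7 is a galectin of stratified epithelia such as skin. It read 7.51, 7.25 and 7.41 in Gli1-/- mice 1 to 3, against 7.82, 8.01 and 8.61 in wild-type mice 1 to 3. All 3 Gli1-/- mice lay below all wild-type mice, and wild-type mouse 3 was highest. The difference was -0.76 (SE 0.20), a Gli1-/- level of 0.592 times that of wild type. Without wild-type mouse 3 the difference was -0.52, and without it and Gli1-/- mouse 2 it was -0.45. Of 7 markers of stratified epithelium 5 were higher in Gli1-/- mice, with summed levels of 9.22 to 9.5 in Gli1-/- and 9.07 to 9.5 in wild-type mice. Of these 7 markers, 3 read below the 30th percentile of all probe sets. Their median difference was 0.17, and -0.02 with dim probe sets left out. The nearest other coding genes, chosen after the values were seen, differed less. Before Lgals4 these were Ech1 by 0.15 (SE 0.11), Hnrnpl by -0.05 (SE 0.09) and Rinl by 0.30 (SE 0.10), whose groups did not overlap. After Lgals7 they were Capn12 by -0.02 (SE 0.11), Actn4 by 0.05 (SE 0.11) and Eif3k by -0.03 (SE 0.14).

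Lgals3, long used under an older name as a macrophage surface marker and also made by many epithelia, was higher in every Gli1-/- mouse. It read 9.69, 9.74 and 8.75 in Gli1-/- mice 1 to 3, against 8.05, 8.48 and 8.05 in wild-type mice 1 to 3. Gli1-/- mice 1 and 2 stood well above the rest, while mouse 3 cleared the highest wild-type mouse by 0.27. The difference was 1.20 (SE 0.27), or 2.30-fold. It was 0.96 without Gli1-/- mouse 2 and wild-type mouse 3, and 0.68 with array weights. Both myeloid and skeletal muscle markers moved with Lgals3. Myeloid scores were 0.39, 0.50 and -0.03 in Gli1-/- mice 1 to 3, against -0.46, -0.12 and -0.27 in wild-type mice 1 to 3. Of 14 myeloid markers 13 were higher, and their summed level was 12.81 to 13.43 in Gli1-/- and 12.36 to 12.92 in wild-type mice. Skeletal muscle scores were 1.25, 0.59 and -0.21 in Gli1-/- mice 1 to 3, against -1.0, 0.11 and -0.74 in wild-type mice 1 to 3. All 7 muscle markers were higher on average, with summed levels of 10.85 to 12.11 in Gli1-/- and 10.46 to 11.22 in wild-type mice. The muscle scores overlapped between the genotypes, through wild-type mouse 2 and Gli1-/- mouse 3. The median difference of the muscle markers was 1.11, and 0.17 with array weights. The part of either list in the Lgals3 difference was not tested.

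Lgals3bp, whose product is secreted and binds galectin-3 and matrix proteins, had the largest spread between wild-type mice. It read 9.98, 10.46 and 10.72 in Gli1-/- mice 1 to 3, against 10.07, 9.26 and 8.42 in wild-type mice 1 to 3. Wild-type mouse 1 lay above Gli1-/- mouse 1, so the groups overlapped. The difference was 1.14 (SE 0.39), or 2.20-fold, and it was 0.72 without wild-type mouse 3. Leaving out Gli1-/- mouse 2 and wild-type mouse 3 together gave 0.69 for Lgals3bp, and 0.79, 0.40 and 0.19 for Lgals9, Lgals12 and Lgals8.

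Lgals9, a tandem-repeat galectin that is induced by interferons and binds Havcr2, a receptor carried by T cells, did not overlap between the genotypes. It read 8.50, 8.86 and 9.33 in Gli1-/- mice 1 to 3, against 8.15, 8.10 and 7.81 in wild-type mice 1 to 3. The difference was 0.88 (SE 0.21), or 1.84-fold, and it was 0.66 without Gli1-/- mouse 3, the highest of the 6. Its order among mice resembled that of Lgals3bp: mouse 3 was highest of both genes in Gli1-/- mice and lowest of both in wild-type mice. Lgals12 had the same order of mice. Interferon-response scores ran alongside, at -0.09, 0.09 and 0.67 in Gli1-/- mice 1 to 3, against -0.08, -0.21 and -0.38 in wild-type mice 1 to 3. Of 18 interferon-response genes 15 were higher, with summed levels of 12.01 to 12.75 in Gli1-/- and 11.54 to 12.03 in wild-type mice. These scores overlapped between the genotypes, through wild-type mouse 1 and Gli1-/- mouse 1. The part of this programme in the Lgals9, Lgals3bp or Lgals12 differences was not tested.

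**Figure D2:**
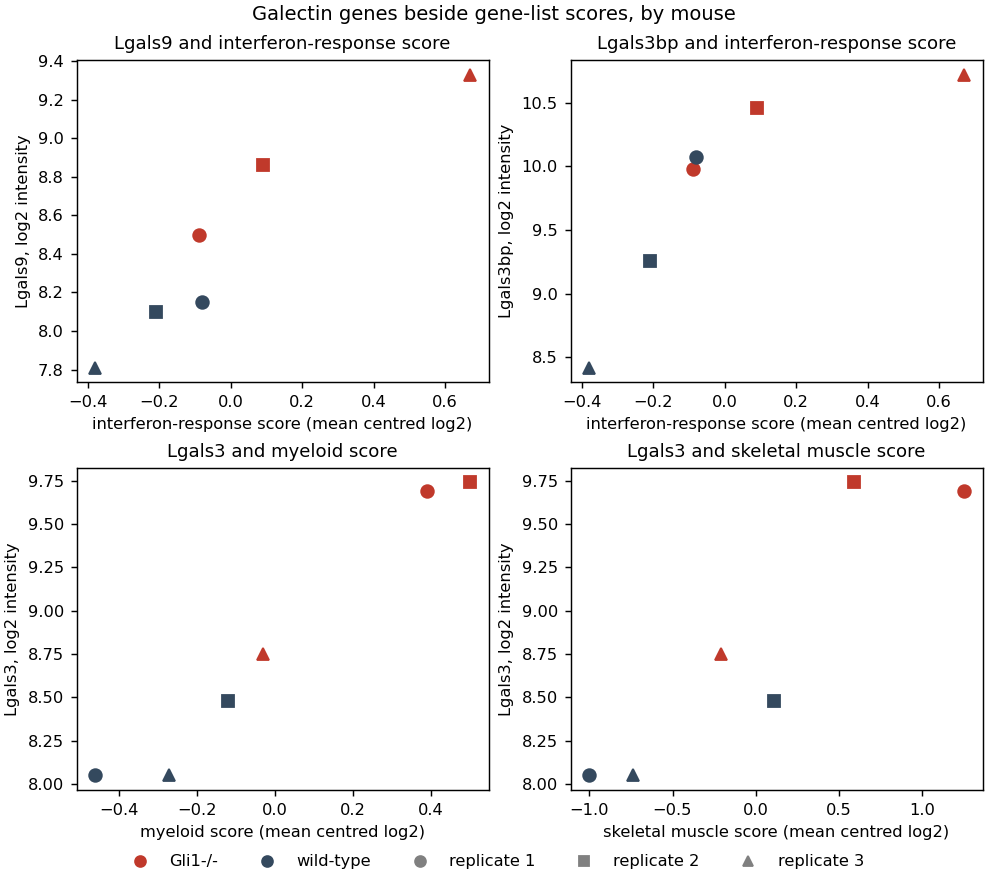
Log2 intensity of Lgals9, Lgals3bp and Lgals3 (vertical axes) against the score of a gene list (horizontal axes, mean centred log2 value) in each mouse, Gli1-/- in red and wild-type in blue. Gli1-/- mouse 3 has the highest interferon-response score, 0.67, with the highest Lgals9 and Lgals3bp, while Gli1-/- mice 1 and 2 have the highest myeloid and skeletal muscle scores with the highest Lgals3.

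Lgals12, a galectin of adipocyte lipid droplets that restrains lipolysis, read higher in Gli1-/- mice. It read 8.26, 8.33 and 8.54 in Gli1-/- mice 1 to 3, against 8.14, 7.86 and 7.54 in wild-type mice 1 to 3. The groups did not overlap, but Gli1-/- mouse 1 and wild-type mouse 1 were only 0.12 apart. The difference was 0.53 (SE 0.17), or 1.44-fold, and 0.38 without wild-type mouse 3. Adipocyte markers differed little. Of these 7 markers 3 were higher, the median difference was -0.03, and summed levels were 9.96 to 10.38 in Gli1-/- and 9.95 to 10.33 in wild-type mice.

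Lgals8, which binds sugars exposed on damaged endosomes and lysosomes and recruits the autophagy machinery there, had a small difference with very little spread. It read 9.42, 9.45 and 9.41 in Gli1-/- mice 1 to 3, against 9.20, 9.26 and 9.19 in wild-type mice 1 to 3. The groups did not overlap, and the difference was 0.21 (SE 0.09), or 1.16-fold. This lies inside the range of -0.39 to 0.35 that spans the 5th to the 95th percentile of all probe sets.

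Lgals1, a galectin of mesenchymal cells that can trigger death of activated T cells, overlapped between the genotypes. It read 11.18, 11.67 and 10.98 in Gli1-/- mice 1 to 3, against 10.59, 11.12 and 11.25 in wild-type mice 1 to 3. The highest of each group were Gli1-/- mouse 2 and wild-type mouse 3, the mice with high seminal vesicle scores, whose part was not tested. The difference of 0.30 (SE 0.23) was 0.23 without them, and turned to -0.10 without Gli1-/- mouse 2 and wild-type mouse 1. Fibroblast markers, at summed levels of 13.68 to 14.03 in Gli1-/- and 13.60 to 13.87 in wild-type mice, had 7 of 9 higher. Bright genes weigh most in such a sum, and Dcn, the brightest of the 9, differed by 0.02 (SE 0.1). Smooth muscle markers, also stromal, went the other way, with 0 of 8 higher. Their summed levels were 13.14 to 13.60 in Gli1-/- and 13.66 to 14.13 in wild-type mice. The part of either list in the Lgals1 values was not tested. Lgals2, a prototype galectin of the digestive tract, had the lowest range, at 5.21 to 5.24 in Gli1-/- and 5.19 to 5.37 in wild-type mice. It differed by -0.04 (SE 0.09).

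**Figure D3:**
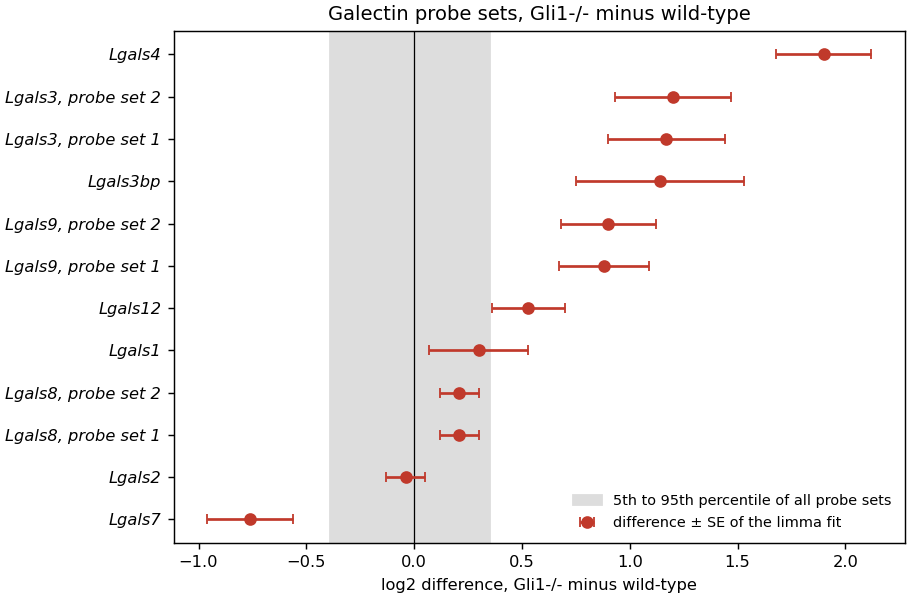
Log2 difference, Gli1-/- minus wild-type, for the 12 galectin probe sets, with bars of ± 1 SE from the limma fit; the grey band holds the 5th to 95th percentile of all probe sets, -0.39 to 0.35. Lgals4 lies farthest right at 1.90 and Lgals7 farthest left at -0.76, while Lgals1, Lgals2 and Lgals8 lie inside the band.

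Related genes with a galectin fold read slightly lower on average in Gli1-/- mice. Lgalsl, a galectin-like gene that lacks sugar binding, read 10.14 ± 0.14 in Gli1-/- and 10.24 ± 0.14 in wild-type mice. Grifin, a lens protein gene, read 6.27 ± 0.12 in Gli1-/- and 6.30 ± 0.11 in wild-type mice (SD, n = 3 each). The groups overlapped for both.

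Enzymes that build or cap the glycans to which galectins bind were then examined. Of 32 measured, 21 were higher and 11 lower, where 48.5% of all genes were higher, with a median difference of 0.11, and 0 passed limma's adjusted threshold in either direction (6 higher, against 5.31% of all probe sets, and 0 lower, against 4.48%, at an unadjusted p under 0.05). The median was 0.05 without wild-type mouse 1 and 0.06 without Gli1-/- mouse 2. The groups did not overlap for 6 enzymes that were higher (7.86% of all probe sets) and 0 that were lower (6.19% of all). Of these, Mgat5, Mgat4a, B3gnt3 and B4galt5 are named because they had the smallest unadjusted p in this same contrast. Mgat5, the branching enzyme whose N-glycan products are favoured ligands of galectin-3, read 8.82 ± 0.10 in Gli1-/- and 8.30 ± 0.31 in wild-type mice. Mgat4a, which adds another N-glycan branch, read 9.19 ± 0.13 in Gli1-/- and 8.46 ± 0.30 in wild-type mice. B3gnt3, which extends glycans on mucin-type proteins, differed by 0.68 (SE 0.16), and B4galt5, a lactosylceramide synthase gene, by 0.59 (SE 0.14). St6gal1, whose sialic acid cap blocks several galectins, was chosen after its values were seen and overlapped between the genotypes, at 7.33 ± 0.24 in Gli1-/- and 7.13 ± 0.11 in wild-type mice (SD, n = 3 each).

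Of 21 measured proteins described as galectin-binding, 16 were higher and 5 lower, against 48.5% of all genes higher, with a median difference of 0.18. None passed the adjusted threshold in limma, and 8 were higher (5.31% of all probe sets) and 0 lower (4.48% of all) at an unadjusted p under 0.05. The median was 0.06 without Gli1-/- mouse 1. The groups did not overlap for 9 that were higher (7.86% of all probe sets) and 1 that was lower (6.19% of all). Of these, Muc1, Cd44, Nrp1 and Itgam are named because they had the smallest unadjusted p in this same contrast. Muc1, a cell-surface mucin of glandular epithelium bound by galectin-3, read 7.18, 6.94 and 7.25 in Gli1-/- mice 1 to 3, against 6.30, 6.30 and 6.38 in wild-type mice 1 to 3. Its groups were 0.56 apart. Cd44, the hyaluronan receptor, read 10.15 ± 0.36 in Gli1-/- and 9.40 ± 0.10 in wild-type mice. Nrp1, a co-receptor that galectin-1 binds, read 8.62 ± 0.05 in Gli1-/- and 8.19 ± 0.13 in wild-type mice (SD, n = 3 each). Itgam, an integrin chain of myeloid cells that also stands in the myeloid list, differed by 0.64 (SE 0.15). Havcr2, the receptor described for Lgals9 and chosen after its values were seen, overlapped at 5.65 ± 0.18 in Gli1-/- and 5.47 ± 0.06 in wild-type mice (SD, n = 3 each).

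Genes with the most similar pattern were listed for the 3 members that varied most over the 6 mice, by Pearson correlation over those mice among named genes with an SD of at least 0.5. The 6 arrays fall into 2 genotypes, so each correlation holds the difference between them and is a description. For Lgals4 they were the acute-phase protease inhibitor gene Serpina3n (r = 0.997), the siderophore-binding lipocalin gene Lcn2 (0.987), Ms4a4d (0.984) and the complement gene Cfb (0.98). Their differences were 2.78, 2.38, 1.19 and 1.08 in that order. For Lgals3bp the closest was Akr1e1 (r = 0.982), an aldo-keto reductase gene. It was followed by Dhx58 (0.98), a cytosolic sensor of viral RNA, and by the interferon-inducible GTPase genes Irgm2 (0.967) and Irgm1 (0.963). For Lgals3 the list was Clca3a2 (r = 0.992), the fast skeletal myosin gene Myh4 (0.982), the secreted WAP-domain gene Wfdc2 (0.981) and the muscle gene Klhl41 (0.974).

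**Figure D4:**
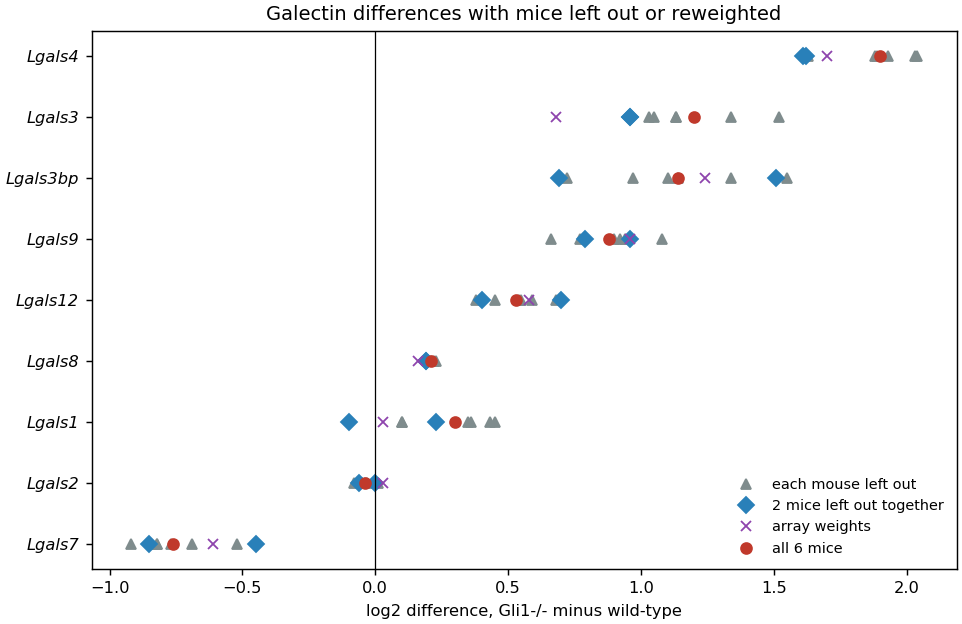
Log2 difference, Gli1-/- minus wild-type, of each galectin gene with all 6 mice (red circles), with each mouse left out (grey triangles), with 2 mice left out together (blue diamonds) and with array weights (purple crosses). Lgals4 stays between 1.61 and 2.04 and Lgals7 between -0.92 and -0.45, while Lgals1 and Lgals2 cross 0.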

How the data were processed

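Single-stranded DNA targets from total RNA were labelled with biotin and hybridised to 1-colour arrays, 1 per mouse, per the labels' protocols. The values were deposited as log2 intensities and used as deposited. The submitters' processing notes list RMA and Partek. RMA compresses differences near background. The sources used here give no array model, probe-set definition or genome build. Column medians lay between 6.76 and 6.95. RefSeq transcript names were matched to symbols through a GRCm38.p6 gene table (25343 of 32025 probe sets, 79.1%, to 1 gene).

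Limma 3.58.1 in R 4.3.3 (lmFit, eBayes) was fitted to all probe sets, Gli1-/- minus wild-type, two-sided, with no covariate or filter, and Benjamini-Hochberg adjusted over all. The procedure was tested on simulated data. Genes in lists were represented by their brightest probe set. The members and lists were chosen with earlier results of these data known. Named genes were all members, the other galectin-fold genes, up to 4 separated genes of each partner list by unadjusted p, and the 4 most similar genes for each of 3 members; others are marked as chosen later. Each sample was a separate mouse, and the number of arrays limits precision (median SE 0.13). Alternatives were 2 normalizations, other variance models, array weights, a replicate block, filters on probe sets, and left-out mice. Same-numbered mice correlated at 0.156, 0.236 and -0.136 in their deviations from group means, and differently numbered mice at -0.31 to 0.233. With 3 mice a group these values cannot exclude pairing. The numbers were not taken as pairs because the labels state none.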

Additional observations from a re-analysis of the deposited data

How the results depend on the processing

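Lgals3, Lgals4, Lgals7, Lgals8, Lgals9, Lgals12 and Lgals3bp kept the sign of their difference in all 16 alternatives, while Lgals1 and Lgals2 did not. For all of the former but Lgals3bp the groups did not overlap, so leaving out or reweighting mice could not change the sign. The other variance models, the replicate block and the filters on probe sets leave a difference itself unchanged. The kept signs are therefore a record only. With single mice left out, Lgals4 ranged from 1.63 to 2.04, Lgals3 from 1.03 to 1.52, Lgals3bp from 0.72 to 1.55, Lgals9 from 0.66 to 1.08, Lgals12 from 0.38 to 0.68 and Lgals7 from -0.92 to -0.52. The count of galectin probe sets past the adjusted threshold ranged from 0 to 1 upward there, the 1 being Lgals4 without Gli1-/- mouse 2. Lgals4 was likewise the 1 that passed without wild-type mouse 1 and Gli1-/- mouse 2 together, where 1 binding-protein gene, Muc1, passed as well and the enzyme median was 0.04. That setting called 120 probe sets higher and 790 lower of all 32025. Leaving out single mice put the enzyme median between 0.05 and 0.15 and the binding-protein median between 0.06 and 0.23. Array weights gave wild-type mouse 2 a weight of 13.5 and the other mice 0.299 to 1.95, and the weight estimate did not converge fully. In that fit 9 galectin probe sets passed upward and 1 downward, with 8 enzymes upward and 3 downward, 8 binding proteins upward and 1 downward, and an enzyme median of 0.02; it called 4079 probe sets higher and 5612 lower in all. The cause of these changes was not tested. With the replicate block 0 galectin probe sets passed in either direction, and 2 probe sets higher and 4 lower passed in all, against 1 and 2 without it. The filter on dim probe sets, under the 30th percentile of mean level, removed Lgals2. The setting without wild-type mouse 3 and Gli1-/- mouse 2 was chosen after seeing the data.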
